A study of Homo sapiens with 6 samples.

Results

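Integrins and laminins were examined by RNA-seq in Huh7, a human cell line long grown from a hepatocellular carcinoma, in 3 Control libraries and 3 HK1-overexpressing libraries. HK1 encodes hexokinase 1, the first enzyme of glucose use, and the series asks what its overexpression does to hepatocellular carcinoma cells. How HK1 was introduced, what the Control cells received, and whether the overexpressing cells were 1 clone or a pool are not given in the sources used here. Members were taken by gene name: every laminin alpha, beta or gamma chain (LAMA, LAMB, LAMC) and every integrin alpha or beta subunit (ITGA, ITGB) in the counts table. This gave 38 of 79172 gene names, made up of 12 laminin genes (5 alpha, 4 beta and 3 gamma chains) and 26 integrin genes (18 alpha and 8 beta subunits). Of these, 21 had enough counts to be tested, 7 laminins and 14 integrins, and 17 did not. The rule itself uses names and no measured value, though these families were taken up with earlier results of these data known.

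Laminins are large secreted proteins of basement membranes, each built from 1 alpha, 1 beta and 1 gamma chain, and they polymerise into the sheet on which epithelial cells rest. Integrins are the matching cell-surface receptors, each a pair of 1 alpha and 1 beta subunit. They grip matrix proteins outside the cell and connect inside it to talin, vinculin and actin. The alpha subunit largely decides the ligand: some bind laminin, some collagen, some the short RGD sequence of fibronectin and vitronectin, and others are known from leukocytes and platelets. In the healthy liver hepatocytes face a matrix with little laminin, and laminins and laminin-binding integrins are known to be higher in bile ducts and in many liver cancers.

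Libraries held 16771835 to 20823072 counts, and each level below is in CPM, a count scaled to a common library size after correction for library composition. HK1 had 13, 15 and 13 counts in the Control libraries and 9723, 10602 and 11101 in the HK1-overexpressing ones, in the direction the labels name. The 8 hepatocyte markers examined (ALB, AFP, APOA1, APOB, TTR, SERPINA1, TF and HNF4A) were all detected, but their summed level moved with the groups, at 11889 to 12910 CPM in Control libraries and 9199 to 9483 CPM in HK1-overexpressing libraries. Most markers examined of endothelium, platelets and leukocytes were at or near 0, while most bile duct markers were not. CDH5, KDR and TEK of endothelium and PF4, PPBP and GP9 of platelets had no count in any library, and PTPRC of leukocytes reached at most 0.151 CPM. Summed levels were 3.58 to 4.27 CPM in Control and 3.51 to 4.33 CPM in HK1-overexpressing libraries for 7 leukocyte markers, 1.88 to 2.26 and 1.80 to 2.45 CPM for 4 platelet markers, 4.57 to 6.86 and 5.04 to 6.25 CPM for 5 endothelial markers, 3.17 to 3.94 and 2.26 to 2.97 CPM for 6 stellate and fibroblast markers, and 357.3 to 377.3 and 352.8 to 372.5 CPM for 4 bile duct markers. Most of the bile duct sum was KRT19, which was not called, while SOX9 fell from 63.9 ± 5.02 to 50.2 ± 1.49 CPM (SD, n = 3 each; log2 -0.35, edgeR adjusted p = 0.00467) and KRT7 was at most 0.605 CPM. PECAM1, at 4.02 to 6.19 CPM, made up most of the endothelial sum. CD14, at 2.94 to 3.77 CPM, made up most of the leukocyte sum, and GP1BA, at 1.80 to 2.45 CPM, the platelet sum. The part of these marker levels in the results was not tested. Nothing in the labels ties a replicate to a culture of its own, so the p-values measure only the spread between these libraries, which may be technical.

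Promoters are shown for 3 members, because LAMA3 was the laminin gene that changed, LAMA5 was the most abundant alpha chain gene beside it, and ITGA2 was the integrin gene closest to the threshold on the rising side. Each sequence is the 250 bases before the RefSeq start (GRCh38.p14, RefSeq), 5′ to 3′ on the gene's strand, with capitals for the motifs searched. The LAMA3 window lies at chr18:23872770-23873019 (plus strand), the LAMA5 window at chr20:62367313-62367562 (minus strand) and the ITGA2 window at chr5:52989102-52989351 (plus strand).
LAMA3: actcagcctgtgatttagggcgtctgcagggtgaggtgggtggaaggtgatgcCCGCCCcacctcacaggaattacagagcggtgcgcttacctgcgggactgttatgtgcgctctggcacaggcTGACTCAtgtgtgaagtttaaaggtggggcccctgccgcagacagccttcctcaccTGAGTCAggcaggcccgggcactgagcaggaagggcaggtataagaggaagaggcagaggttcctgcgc
LAMA5: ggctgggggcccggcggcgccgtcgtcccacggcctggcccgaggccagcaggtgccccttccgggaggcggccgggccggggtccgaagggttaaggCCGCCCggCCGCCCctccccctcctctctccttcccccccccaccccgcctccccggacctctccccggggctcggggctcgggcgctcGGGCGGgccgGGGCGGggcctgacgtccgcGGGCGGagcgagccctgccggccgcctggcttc
ITGA2: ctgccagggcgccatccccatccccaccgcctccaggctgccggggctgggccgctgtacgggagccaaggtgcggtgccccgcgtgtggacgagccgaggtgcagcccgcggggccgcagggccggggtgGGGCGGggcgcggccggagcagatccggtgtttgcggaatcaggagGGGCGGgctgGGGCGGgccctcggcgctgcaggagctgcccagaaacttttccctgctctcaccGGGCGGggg
Motifs were searched on both strands of these windows. GGGCGG is the core of a GC box, TGANTCA is the consensus of the factor AP-1, GGAATG is a core bound by TEAD factors, and TATAAA is a TATA box. In the 3 printed windows no match overlaps another. RefSeq windows were found for 26 of the 38 members. LAMA3 held 2 AP-1 matches and 1 GC box. It was the 1 member of the 26 with an AP-1 match, which 6.57% of 35116 promoters of the same length held. LAMA5 held 5 GC boxes and ITGA2 held 4, and a GC box was in 13 of 26 members and 42.6% of all promoters. The TEAD core was in 4 members and the TATA box in 1, against 11.9% and 10.7% of all promoters. A match describes letters and is no evidence of a bound factor.

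Among the tested members 1 of 21 was called, LAMA3, which was higher in HK1-overexpressing cells. By edgeR's quasi-likelihood test with Benjamini-Hochberg adjustment at 0.05 over all genes, 8.02% of 16734 tested genes were called, 3.87% higher and 4.15% lower, so the members' 4.76% was near the background. The median log2 fold change was 0.06 over the 21 members, -0.08 over the 7 laminins and 0.17 over the 14 integrins, beside 0.01 over all tested genes. The groups did not overlap for 11 of the 21 members, 6 higher and 5 lower, or 52.4%, where 27.8% of all tested genes had no overlap. With library totals in place of composition scaling, 66.0% of the called genes were higher in place of 48.3%, while LAMA3 was still the 1 member called. In bulk samples fewer cells of a kind and less RNA per cell cannot be told apart.

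**Figure D1:**
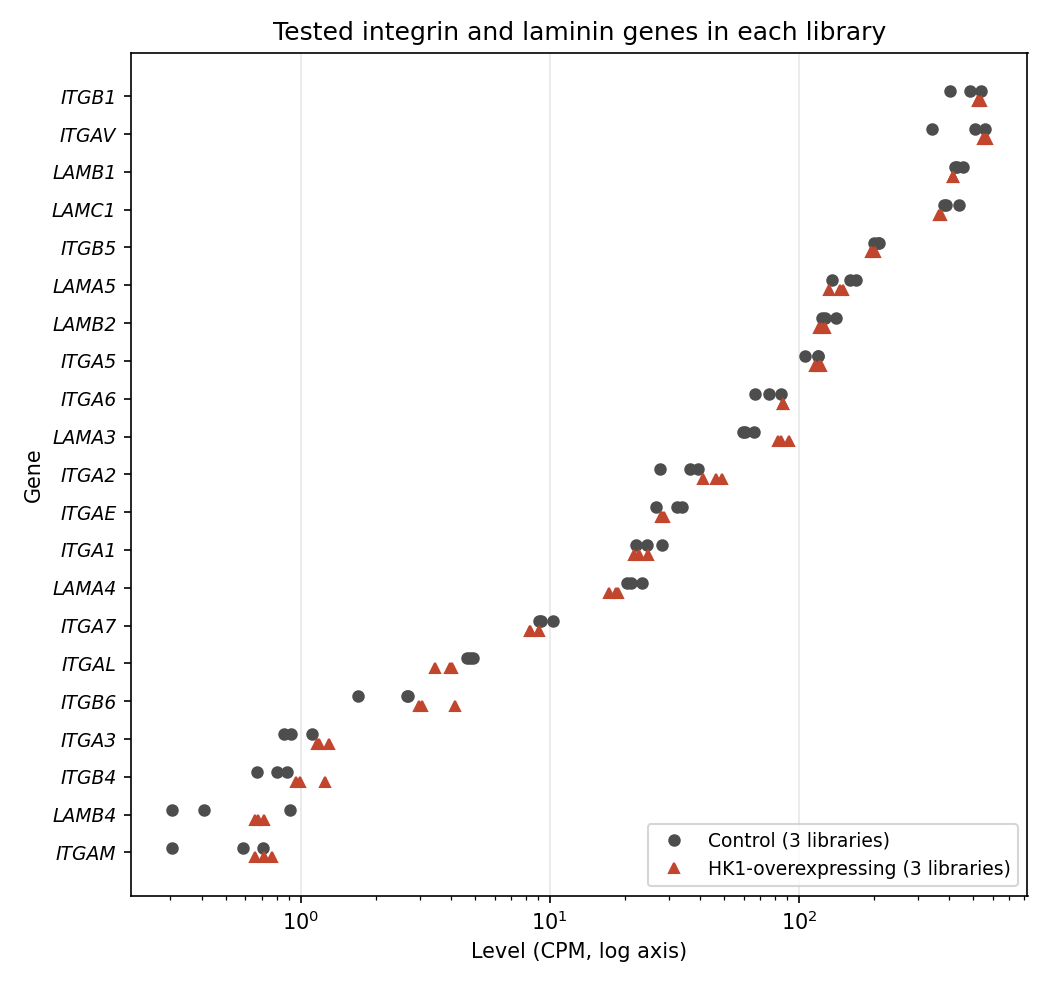
Level of each of the 21 tested genes in CPM on a log axis, with Control libraries as grey circles and HK1-overexpressing libraries as red triangles. The triangles of LAMA3, at 82.2 to 91.2 CPM, sit to the right of its circles, at 59.9 to 66.2 CPM, while ITGAV and ITGB1 show 1 Control library far to the left of the others.

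LAMA3, the alpha 3 chain of epithelial laminins that anchor cells through integrins containing alpha 3 or alpha 6, was the laminin gene that rose. It was counted over exons on chromosome 18 from 23689453 to 23956222 (hg38, plus strand), and no other gene in the table shared its exon bases. LAMA3 stood at 66.2, 60.6 and 59.9 CPM in Control libraries and at 82.2, 84.5 and 91.2 CPM in HK1-overexpressing libraries. All 3 HK1-overexpressing libraries were above all 3 Control libraries. The means were 62.2 ± 3.46 and 86.0 ± 4.67 CPM (SD, n = 3 each), 1.38-fold apart, and the log2 fold change was 0.47 (standard error 0.0626, edgeR adjusted p = 0.000342). The gene is known to be read from separate starts, giving a long and a short chain, and the RefSeq window printed above lies inside the counted span rather than at its edge. Counts per gene do not separate these forms.

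LAMA5 and LAMA4 were the other alpha chain genes with more than trace counts. LAMA5, the main alpha chain of many adult basement membranes, stood at 169.4, 160.3 and 135.8 CPM in Control and at 132.5, 146.2 and 150.7 CPM in HK1-overexpressing libraries. These values overlapped, with a log2 fold change of -0.12 (standard error 0.0784, edgeR adjusted p = 0.432). LAMA4, a chain known from blood vessels and mesenchyme, stood at 23.4, 20.4 and 21.2 CPM in Control and at 18.8, 18.5 and 17.3 CPM in HK1-overexpressing libraries. All 3 HK1-overexpressing libraries were below all Control libraries, but the log2 fold change of -0.25 (standard error 0.0801) did not pass (edgeR adjusted p = 0.0666). It passed without Control replicate 2 (log2 -0.29, edgeR adjusted p = 0.0221) and in no other alternative run.

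To set the alpha chains against each other, CPM was divided by exon length in kilobases and each gene was expressed as a share of the summed alpha chain level in its library. The share of LAMA3 was 24.8%, 24.4% and 26.8% in Control libraries and 34.3%, 33.1% and 34.4% in HK1-overexpressing libraries. The share of LAMA5 was 64.4%, 65.5% and 61.6% in Control and 56.1%, 58.1% and 57.6% in HK1-overexpressing libraries. The share of LAMA4 was 10.6%, 9.95% and 11.5% in Control and 9.51%, 8.75% and 7.91% in HK1-overexpressing libraries. For each of the 3 chains the groups did not overlap, and LAMA5 remained the largest share in every library. Such separation was common among the shares compared across the 5 classes. The shares of ITGA1, ITGA2, ITGA6, ITGA7, ITGB1 and ITGB5 did not overlap either, while those of LAMB1, LAMB2, LAMC1, ITGA5, ITGAE and ITGAV did. The share of LAMA3 differed by 8.57 percentage points and that of LAMA5 by -6.61 (exact permutation test, two-sided, p = 0.10 for each, which is the smallest value 3 libraries against 3 allow, and 0.167 adjusted over 15 shares compared across the 5 classes). With the longest coding transcript as the length, chosen after the data were seen, these differences were 8.74 and -6.10 percentage points. A share can move because another member of the sum moves, and LAMA3 was the 1 alpha chain gene that passed the test on its own level.

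**Figure D2:**
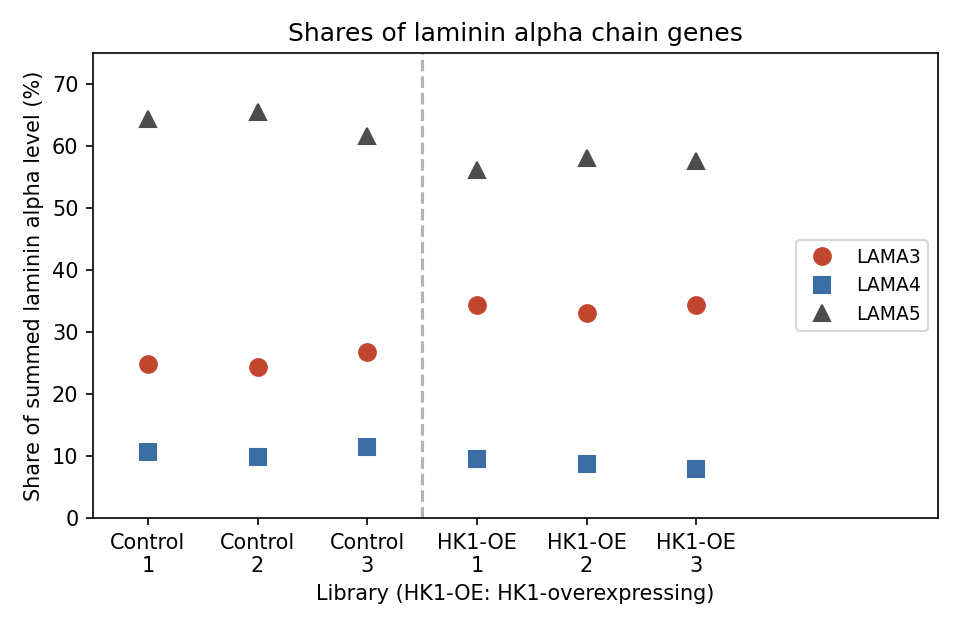
Share of the summed laminin alpha chain level, in percent of CPM per kilobase, held by LAMA3, LAMA4 and LAMA5 in each of the 6 libraries. LAMA3 sits at 24.4% to 26.8% in the Control libraries and at 33.1% to 34.4% in the HK1-overexpressing (HK1-OE) libraries, and LAMA5 is the largest share throughout.

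The beta and gamma chains were those of the widespread laminins, and none was called. LAMB1, the beta 1 chain, stood at 455.8, 423.0 and 429.4 CPM in Control and at 413.9, 416.8 and 415.3 CPM in HK1-overexpressing libraries (log2 -0.07, standard error 0.0464, edgeR adjusted p = 0.416). LAMC1, the gamma 1 chain, stood at 440.3, 389.4 and 383.6 CPM in Control and at 368.7, 364.0 and 372.1 CPM in HK1-overexpressing libraries (log2 -0.14, standard error 0.0549, edgeR adjusted p = 0.158). Both genes had lower values in all HK1-overexpressing libraries than in any Control library, by margins that were small beside the Control spread. Without Control replicate 1 the log2 fold changes were -0.03 for LAMB1 and -0.07 for LAMC1 (edgeR adjusted p = 0.667 and 0.354). Without Control replicate 2 they were -0.09 and -0.16 (edgeR adjusted p = 0.196 and 0.0526). Without Control replicate 3 they were -0.08 and -0.17 (edgeR adjusted p = 0.439 and 0.141). LAMB2, the beta 2 chain, overlapped between groups at 123.5 to 141.2 CPM in Control and 120.1 to 127.3 CPM in HK1-overexpressing libraries (edgeR adjusted p = 0.492). LAMB1 held 52.4% to 56.8% and LAMB2 42.8% to 47.4% of the summed beta chain level per kilobase of exon in Control libraries, and 54.5% to 55.8% and 43.9% to 45.2% in HK1-overexpressing ones. This split depends on the length used. With the longest coding transcript, chosen after the data were seen, LAMB1 held 74.6% to 77.8% and LAMB2 22.0% to 25.3% in Control libraries. In HK1-overexpressing libraries they then held 76.1% to 77.1% and 22.7% to 23.7%. LAMC1 spans chromosome 1 from 183023420 to 183145592 (hg38), shares no exon bases with another gene, and held at least 99.76% of the gamma chain level per kilobase of exon in every library.

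Other laminin chain genes had few counts. LAMB3, the beta 3 chain, which joins the LAMA3 chain in an epithelial anchoring laminin, had 2, 2 and 3 counts in Control and 4, 2 and 1 in HK1-overexpressing libraries. It was below the filter and had no edgeR test. LAMB4 lies 20334 bases from LAMB1 on chromosome 7. LAMB4 was tested, at 0.303 to 0.905 CPM in Control and 0.655 to 0.711 CPM in HK1-overexpressing libraries, and was not called (edgeR adjusted p = 0.722). LAMA2, the alpha chain of muscle, had at most 9 counts in a library, LAMC3 at most 4, and LAMA1 had 1 count in Control replicate 1 and 0 elsewhere.

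Of the integrin genes 0 of 14 passed edgeR's test in either direction. At an unadjusted edgeR p below 0.05 there were 3 higher and 1 lower of the 14, where 21.9% of all tested genes reached that p, 10.7% higher and 11.2% lower. DESeq2 called 1, ITGA2, against 6.36% of all tested genes, and limma-voom called 0 against 7.27%. By level per kilobase in Control libraries, ITGB5 (31.7 ± 0.804 CPM per kilobase), ITGB1 (27.2 ± 3.80), ITGAV (24.3 ± 5.82), ITGA5 (15.6 ± 1.08) and ITGA6 (10.7 ± 1.28) led (SD, n = 3 each). ITGB1 and ITGAV did not differ beyond their spread, and the order of the first 3 depends on the length used: with the longest coding transcript ITGB1 led at 125.9, followed by ITGAV at 66.8 and ITGB5 at 47.2 CPM per kilobase. ITGA5 and ITGA6 stayed behind these 3 with both lengths. Among laminin genes LAMC1 stood at 47.9 ± 3.70, LAMB1 at 23.5 ± 0.934, LAMB2 at 19.0 ± 1.36 and LAMA5 at 10.9 ± 1.21 CPM per kilobase of exon. The order of LAMC1 and LAMB1 depends on the length used as well. With the longest coding transcript LAMB1 stood at 75.6 ± 3.01, LAMC1 at 51.3 ± 3.96, LAMB2 at 23.0 ± 1.65 and LAMA5 at 13.6 ± 1.52 CPM per kilobase.

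**Figure D3:**
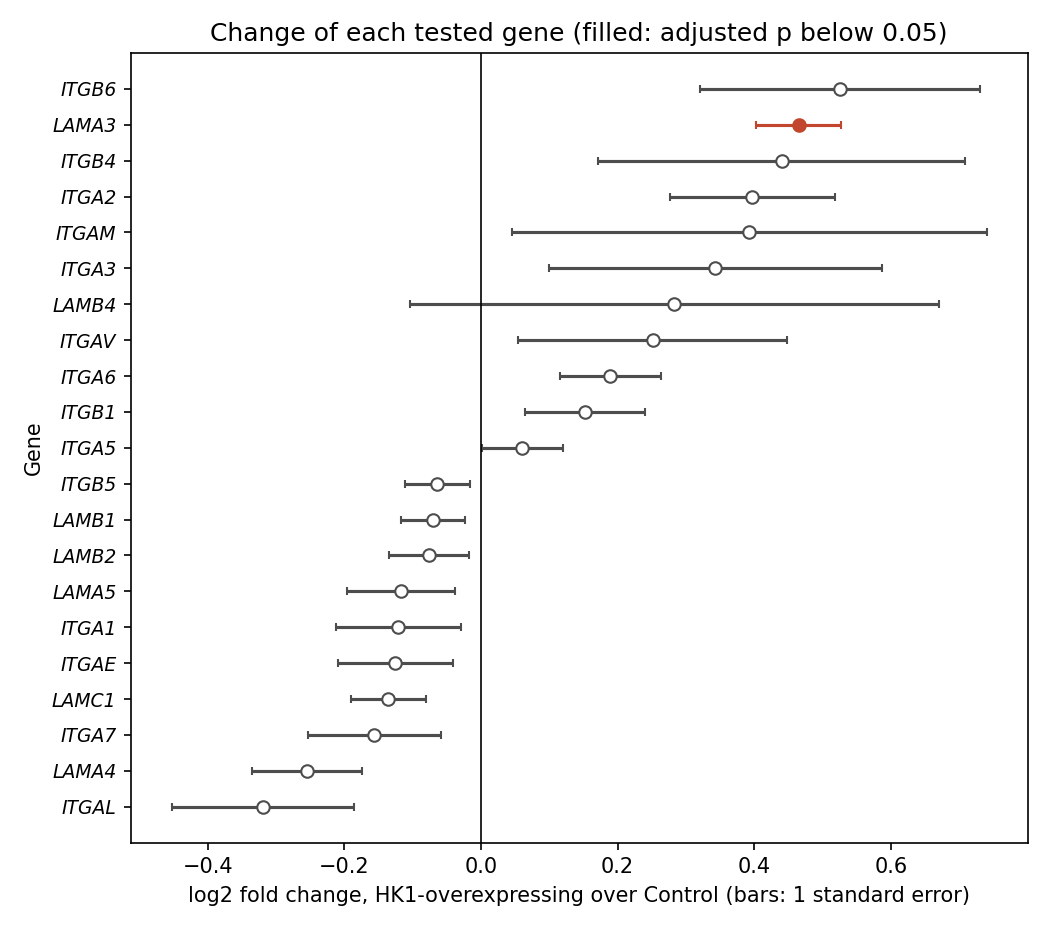
Log2 fold change of each tested gene, HK1-overexpressing over Control, with bars of 1 standard error and a filled point where the adjusted p was below 0.05. LAMA3, at 0.47, is the 1 filled point, and the low genes LAMB4, ITGAM, ITGB4 and ITGA3 carry wide bars.

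The alpha subunits known mainly as laminin receptors are alpha 3, alpha 6 and alpha 7. ITGA6, which pairs with beta 1 or beta 4, stood at 84.8, 66.6 and 75.9 CPM in Control and at 86.4, 86.4 and 86.7 CPM in HK1-overexpressing libraries. All HK1-overexpressing values were above the Control values, but Control replicate 1 lay close to them, and the log2 fold change of 0.19 (standard error 0.0739) did not pass (edgeR adjusted p = 0.144). It passed without Control replicate 1 (log2 0.28, edgeR adjusted p = 0.00373) and was 0.11 without Control replicate 2 (edgeR adjusted p = 0.238). ITGA7, a muscle laminin receptor, was at 9.09 to 10.3 CPM in Control and 8.31 to 9.05 CPM in HK1-overexpressing libraries (log2 -0.16, edgeR adjusted p = 0.387). ITGA3, a chief laminin receptor subunit of many epithelia, was near the detection limit at 0.855 to 1.11 CPM in Control and 1.16 to 1.30 CPM in HK1-overexpressing libraries (log2 0.34, standard error 0.244, edgeR adjusted p = 0.458). ITGB4, the beta subunit of hemidesmosomes, was likewise low, at 0.667 to 0.880 and 0.957 to 1.25 CPM (log2 0.44, standard error 0.268, edgeR adjusted p = 0.371).

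Of the 4 collagen-binding subunits 2 were tested. ITGA2, which with beta 1 binds collagen and also laminin, stood at 39.5, 27.7 and 36.4 CPM in Control and at 46.5, 41.3 and 49.0 CPM in HK1-overexpressing libraries. All HK1-overexpressing libraries were above all Control libraries. The means were 34.5 ± 6.08 and 45.6 ± 3.94 CPM (SD, n = 3 each), and the log2 fold change was 0.40 (standard error 0.121, edgeR adjusted p = 0.0838). The value lay near the threshold: it passed with DESeq2 (adjusted p = 0.0084), with a mean CPM of at least 5 (edgeR adjusted p = 0.0488), without a filter, without Control replicate 1 (log2 0.51, edgeR adjusted p = 0.0127) and without Control replicate 2 (log2 0.27, edgeR adjusted p = 0.0224), and reached an edgeR adjusted p of 0.238 without HK1-overexpressing replicate 3. ITGA1, its neighbour on chromosome 5 at a gap of 30130 bases, overlapped between groups at 22.3 to 28.3 CPM in Control and 21.7 to 24.8 CPM in HK1-overexpressing libraries (log2 -0.12, standard error 0.0909, edgeR adjusted p = 0.486). ITGA2 spans chromosome 5 from 52989340 to 53094779 (hg38, plus strand). Of the exon bases of ITGA1, 13.2% are shared with other genes, among them PELO, so fragments there may be missing from its counts. ITGA10 and ITGA11, the other collagen receptors, had at most 9 and 4 counts in a library.

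The RGD-binding subunits were the most abundant integrin alpha genes. ITGAV, the alpha V subunit of the vitronectin receptors and an activator of latent TGF-beta, stood at 556.8, 342.4 and 509.1 CPM in Control and at 560.1, 567.9 and 549.1 CPM in HK1-overexpressing libraries. ITGAV spans chromosome 2 from 186590010 to 186680901 (hg38). Control replicate 2 stood apart, while Control replicate 1 lay within the range of the HK1-overexpressing libraries. The log2 fold change was 0.25 (standard error 0.197, edgeR adjusted p = 0.55), and it was 0.07 without Control replicate 2 (standard error 0.0436, edgeR adjusted p = 0.346). ITGA5, the fibronectin receptor subunit, stood at 119.6, 119.4 and 105.6 CPM in Control and at 116.2, 120.1 and 123.3 CPM in HK1-overexpressing libraries, which overlapped (log2 0.06, standard error 0.0587, edgeR adjusted p = 0.602). ITGA8, the nephronectin receptor subunit, had no count in any library, and ITGA2B, the platelet fibrinogen receptor subunit, had at most 3.

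Among beta subunits, ITGB1, the partner of most alpha subunits, stood at 537.0, 405.3 and 487.0 CPM in Control and at 540.8, 522.9 and 525.5 CPM in HK1-overexpressing libraries. The groups overlapped (log2 0.15, standard error 0.0877, edgeR adjusted p = 0.365). The value was 0.25 without Control replicate 1, where it passed (edgeR adjusted p = 0.0183), and 0.05 without Control replicate 2 (edgeR adjusted p = 0.536). ITGB5, a partner of alpha V, stood at 208.4, 210.3 and 200.4 CPM in Control and at 194.6, 201.4 and 196.2 CPM in HK1-overexpressing libraries (log2 -0.06, standard error 0.0473, edgeR adjusted p = 0.477). ITGB1 made up 48.5%, 41.3% and 47.1% of the summed beta subunit level per kilobase in Control libraries and 50.3%, 48.5% and 49.2% in HK1-overexpressing ones. The difference of 3.71 percentage points became 1.53 without Control replicate 2. These shares use exon length and depend on it. With the longest coding transcript ITGB1 made up 74.5%, 68.6% and 73.5% in Control and 75.8%, 74.5% and 75.1% in HK1-overexpressing libraries. The difference was then 2.97 percentage points. ITGB6, an epithelial partner of alpha V that rises in wounds and carcinomas, was low at 2.66, 2.70 and 1.70 CPM in Control and 3.07, 2.98 and 4.17 CPM in HK1-overexpressing libraries (log2 0.53, standard error 0.205, edgeR adjusted p = 0.139). ITGB3 and ITGB8, further partners of alpha V, were below the filter with at most 15 and 5 counts in a library. Of ITGB3's exon bases 33.2% are shared with other genes, so fragments there may be missing from its counts.

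**Figure D4:**
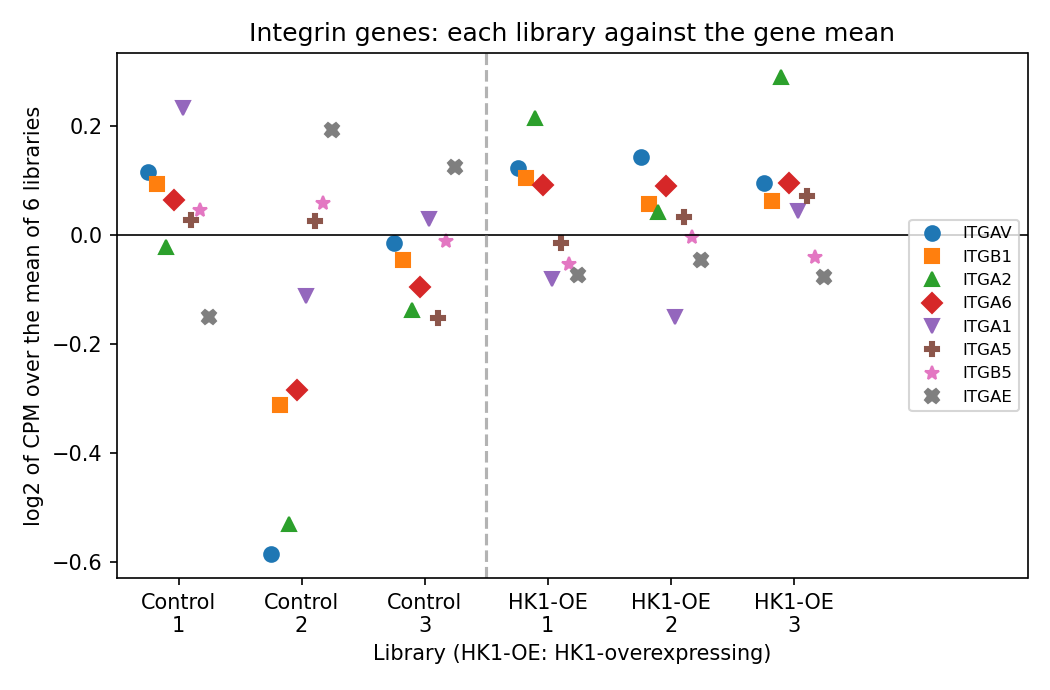
Level of 8 integrin genes in each library as the log2 of its CPM over that gene's mean of the 6 libraries. ITGAV, ITGA2, ITGB1 and ITGA6 lie lowest in Control replicate 2, while ITGAE lies highest there, and most points of the HK1-overexpressing (HK1-OE) libraries lie close together.

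The spread between Control libraries was larger than that between HK1-overexpressing ones for several of these receptors, as it was over tested genes in general. Against the mean of the other 2 Control libraries, Control replicate 2 was at a log2 ratio of -0.64 for ITGAV, -0.45 for ITGA2, -0.34 for ITGB1 and -0.27 for ITGA6. The 5th and 95th percentiles of that ratio over tested genes with a mean of at least 10 CPM were -0.37 and 0.21, so ITGAV and ITGA2 lay outside this range. ITGA5 and ITGAE were at 0.08 and 0.20, so the integrin genes did not shift together in that library. For LAMA3 the ratio was -0.06, within this range. The same percentiles were -0.25 and 0.29 for Control replicate 1 and -0.17 and 0.18 for Control replicate 3. For HK1-overexpressing replicates 1, 2 and 3 they were -0.14 and 0.14, -0.11 and 0.12, and -0.14 and 0.13. The wider Control spread was thus not particular to integrin genes.

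Most integrin genes named for leukocytes had few or no counts. ITGAE, known as the alpha E subunit of resident T cells, had the highest level of them, at 26.6, 33.8 and 32.3 CPM in Control and 28.1, 28.7 and 28.0 CPM in HK1-overexpressing libraries (log2 -0.13, standard error 0.0845, edgeR adjusted p = 0.428). It passed without Control replicate 1 (log2 -0.22, edgeR adjusted p = 0.0467), and the value was -0.05 without Control replicate 2 (edgeR adjusted p = 0.767). ITGAE shares 7.65% of its exon bases with other genes, among them HASPIN, a kinase gene inside it, and its partner ITGB7 had no count in any library. Of ITGB7's exon bases 42.3% are shared with another gene, ZNF740, so fragments there may be missing from its counts. Its 0 speaks only for the exon bases not shared and does not show that the gene was silent. ITGAL, the alpha subunit of LFA-1, was at 4.78, 4.63 and 4.92 CPM in Control and 3.98, 4.04 and 3.46 CPM in HK1-overexpressing libraries, lower in all 3 but not called (log2 -0.32, standard error 0.133, edgeR adjusted p = 0.17). ITGAM was at 0.303 to 0.704 and 0.655 to 0.770 CPM (edgeR adjusted p = 0.559), and ITGB2, the beta subunit these leukocyte integrins need, had at most 5 counts in a library. ITGAX and ITGAD had at most 1 count, ITGA9 at most 8, and ITGA4, of which 30.8% of exon bases are shared with other genes, had 0 in all 6 libraries. A count of 0 allows a level of up to 0.144 to 0.179 CPM by library, and more where exon bases are shared, as in ITGB7 and ITGA4.

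**Figure D5:**
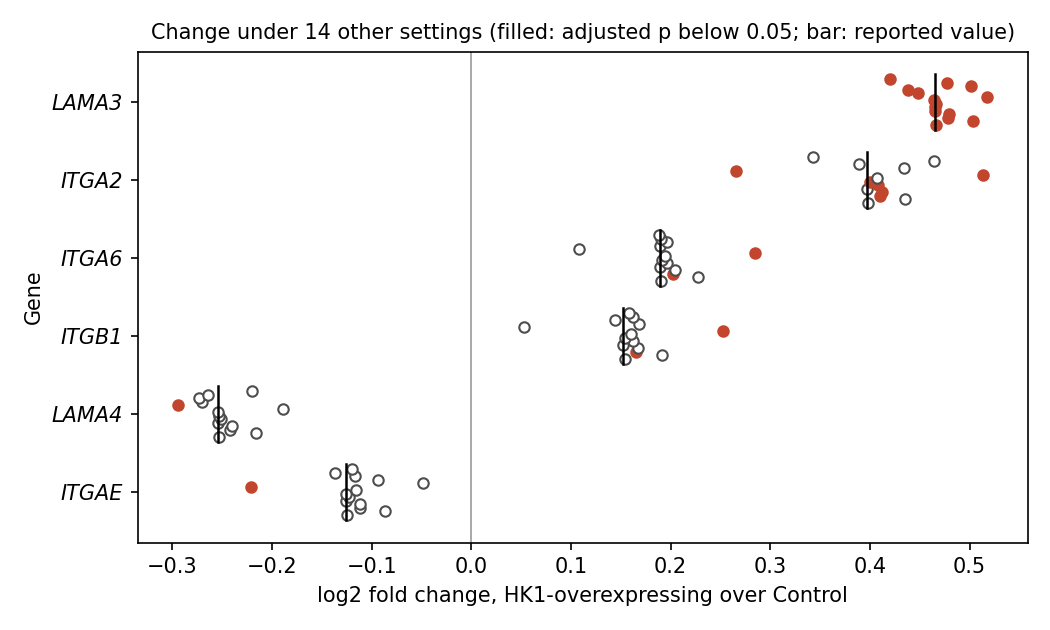
Log2 fold change, HK1-overexpressing over Control, of 6 genes under 14 other settings of the processing, filled where the adjusted p was below 0.05, with a bar at the reported value. LAMA3 is filled under all 14, and ITGA2 under 6, while ITGA6, ITGB1, LAMA4 and ITGAE are filled under 1 or 2.

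The same test was read for 3 lists of genes whose products work next to laminins and integrins. In a list of 39 matrix ligands and basement membrane genes, 7 of 30 tested rose and 6 fell, with a median log2 fold change of -0.02. Over all tested genes 3.87% rose and 4.15% fell. NID1 and NID2 encode nidogens, which bridge laminin to collagen IV. NID1 fell from 722.0 ± 45.2 to 522.5 ± 10.2 CPM (SD, n = 3 each; log2 -0.47, edgeR adjusted p = 5.75e-05), and NID2 rose from 24.3 ± 3.74 to 41.4 ± 0.571 CPM (log2 0.76, edgeR adjusted p = 0.00015). NTN4, netrin 4, a laminin-related protein that binds laminin gamma chains, rose from 4.62 to 4.93 CPM in Control libraries to 9.76 to 10.2 CPM in HK1-overexpressing ones (log2 1.07, edgeR adjusted p = 1.44e-05). SPP1, osteopontin, an RGD ligand, rose by 0.36 and COL1A2, a collagen I chain, by 0.58 on the log2 scale (edgeR adjusted p = 0.000924 and 0.001). VTN, vitronectin, fell from 127.4 ± 3.92 to 94.6 ± 2.95 CPM (log2 -0.43, edgeR adjusted p = 0.00015), FGB, fibrinogen beta, changed by -0.27 and FN1, fibronectin, by -0.22 (edgeR adjusted p = 0.00183 and 0.0167). FN1 no longer passed once Control replicate 3, or 1 HK1-overexpressing library of any number, was left out. With HK1-overexpressing replicate 2 or 3 left out 3 genes of the list fell. VTN, FGB and FN1 are also secreted by hepatocytes. In HK1-overexpressing cells 5 of the 8 hepatocyte markers fell, where 4.15% of all tested genes did. The part of this in the matrix counts was not tested.

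Of 18 tested partners in the membrane and other laminin receptors, 3 rose and 2 fell, with a median log2 fold change of -0.06. The shares over all tested genes were 3.87% higher and 4.15% lower. CD9, a tetraspanin that associates with integrins, rose from 18.4 ± 0.965 to 32.0 ± 1.17 CPM (SD, n = 3 each; log2 0.80, edgeR adjusted p = 9.34e-06). CAV1, caveolin 1, rose from 26.3 ± 2.75 to 48.6 ± 0.591 CPM (log2 0.89, edgeR adjusted p = 4.31e-06). CD47, the integrin-associated protein, rose by 0.24 (edgeR adjusted p = 0.0172), but did not pass with 1 HK1-overexpressing library fewer, whichever it was. BCAM, a receptor for laminin alpha 5, fell from 77.1 ± 5.49 to 57.0 ± 2.08 CPM (log2 -0.44, edgeR adjusted p = 0.000698). SDC1, syndecan 1, a heparan sulfate proteoglycan that binds laminin, fell from 142.1 ± 4.98 to 112.2 ± 4.97 CPM (log2 -0.34, edgeR adjusted p = 0.00123).

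Inside the cell, 4 of 35 tested genes of the adhesion machinery rose and 1 fell, with a median log2 fold change of 0.05. APBB1IP, which encodes the Rap1 effector RIAM that brings talin to integrins, rose from 15.1 ± 0.931 to 22.7 ± 1.56 CPM (SD, n = 3 each; log2 0.59, edgeR adjusted p = 0.000489). TGFB1I1, the paxillin relative Hic-5, rose from 3.27 ± 0.491 to 5.40 ± 0.344 CPM (log2 0.73, edgeR adjusted p = 0.00648). VCL, vinculin, and DAB2, an endocytic adaptor for integrins, rose by 0.23 and 0.25 (edgeR adjusted p = 0.00905 and 0.00856), and neither passed with 1 HK1-overexpressing library fewer, whichever it was, nor VCL with Control replicate 3 left out. KANK2, an adaptor at the rim of adhesions, changed by -0.23 (edgeR adjusted p = 0.0364), a call lost in 9 of 14 alternatives. With Control replicate 1 left out 9 genes rose, and with 1 HK1-overexpressing library left out 2 rose in each case. These 3 lists were chosen with earlier results of these data known, and their counts are given beside the background of 8.02% without a test of the lists.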

How the data were processed

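RNA was extracted with TRIZOL and stranded mRNA libraries were made, per the labels' protocols. The authors deposited raw counts: featureCounts 1.5.3 assigned read pairs to exons of GENCODE 47 and summed them under each gene name, per the file headers. Build hg38, Trim Galore and Subread come from the submitters' processing notes. The recorded command sets no strand, multi-mapping or overlap option, so antisense and overlapping partners cannot be told apart. All counts were checked to be whole numbers, and columns were matched to samples by title.

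Counts were scaled by TMM and filtered by filterByExpr (16734 genes). The test was edgeR's robust quasi-likelihood fit with group as its 1 term (edgeR 4.0.16, R 4.3.3, Benjamini-Hochberg at 0.05), which was first tested on simulated data. Of 50 genes seeded at each fold it recovered 68% at 1.25-fold, 92% at 1.5-fold and 100% at 2-fold and at 4-fold, with 24 false calls. The false calls were a larger share of all calls there than the threshold of 0.05 names. Small changes can thus be missed, and some calls can be false. Standard errors are the coefficient divided by the square root of F. Levels between genes are CPM per kilobase of the exon length in the table, or of the longest coding transcript in GENCODE 29. DESeq2 1.42.0 and limma 3.58.1 (voom) were alternatives.

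The members and lists were chosen with earlier results of these data known. All members were named except 1 below the filter, which is not reported here, and of each other list up to 4 called genes of smallest p in each direction. Equal replicate numbers were not read as pairs in the main fit, because the labels do not say that they mark a shared culture or day.
No protein sequences were used here, so a planned description of protein motifs was not made.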

Additional observations from a re-analysis of the deposited data

How the results depend on the processing

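LAMA3 stayed called under all 14 alternatives (log2 0.42 to 0.52, largest adjusted p 0.00759), and no tested member changed sign in any of them. The called members numbered 4 higher without a filter, and 2 higher with a mean CPM of at least 5 or DESeq2's test, the added genes being ITGA2, ITGA6 and ITGB1. Leaving out 1 library gave 1 to 4 higher and 0 to 1 lower. Over all genes it gave 286 to 1172 higher and 250 to 1085 lower, and library totals gave 463 lower. Adhesion machinery ranged from 2 to 9 higher and 0 to 1 lower, with 0 lower under library totals, no filter, DESeq2 or the block, and matrix ligands from 3 to 8 lower. The cause of these shifts was not tested.

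With the replicate number as a block, 2 members were higher (ITGA2 added, edgeR adjusted p = 0.00351) and 563 genes were higher and 511 lower in all. Same-numbered libraries showed correlations of -0.00929, 0.0514 and -0.0513 in their deviations from group means, and not every library correlated best with its own number, so the numbers were not read as pairs. Leaving out 1 library also moved the log2 fold changes of LAMA5 (-0.20 to -0.04), LAMB2, LAMB4, ITGA1, ITGA5, ITGA7, ITGAM and ITGB6 by over 1.5 times, and none of these 8 passed. Counts limit the 17 members below the filter, none of which had over 15 counts in a library.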
